A study of Arabidopsis thaliana with 12 samples.

Results

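Heat shock transcription factors (HSFs) are the DNA-binding proteins that switch on chaperone genes when proteins are at risk of unfolding. Described here are 10 of the 21 HSF genes of Arabidopsis thaliana, chosen by gene identifier: HSFA1A (AT4G17750), HSFA1B (AT5G16820), HSFA1D (AT1G32330), HSFA1E (AT3G02990), HSFA2 (AT2G26150), HSFA3 (AT5G03720), HSFA7A (AT3G51910), HSFB1 (AT4G36990), HSFB2A (AT5G62020) and HSFB2B (AT4G11660). All 10 were found among the 33655 features counted, and all 10 passed the filter on low counts that left 17841 genes for testing. HSFA2 passed it through libraries at 28 °C only, and HSFA1E mostly through libraries at 22 °C, so the filter itself favours a difference between temperatures for these genes.

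The libraries came from whole seedlings, 6 days old, of spaQ and of Col-0, the wild-type accession. SPA proteins work with the ubiquitin ligase COP1 to keep light signalling in check, and spaQ is known as the mutant in all 4 SPA genes. The labels do not state its alleles. The 4 groups were spaQ at 28 °C, spaQ at 22 °C, Col-0 at 28 °C and Col-0 at 22 °C, with 3 libraries each. Seeds of all groups were stratified for 3 days and then kept under white light (25 µmol) at 22 °C for 5 days before the treatment, whose length is 4 h in the sample protocols and 24 h in the text on the series. Nothing in the labels says that replicates were separate cultures, so the p-values measure the spread between these libraries, which may in part be technical.

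In plants the class A1 factors are present before stress and are held inactive by HSP70 and HSP90 chaperones. Heat releases them, and they then activate genes for chaperones and for further HSFs, among them HSFA2, HSFA7A and the class B factors. Class B factors lack the activation domain of class A and mostly repress, so that the response is damped by products of its own activation.

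Total counts per library ran from 2609808 to 9390725, and counts are given as CPM, a gene's count over the TMM-scaled size of its library. A floor of 3 counts corresponded to between 0.279 and 1.25 CPM and covers counting error only. Libraries of 3′ Tag-Seq read near the transcript's end, and no level is compared between genes below. In spaQ, transcripts of 3 SPA genes were called lower and 1, SPA4, higher than in Col-0 at each temperature. The 14 root-preferring genes summed to between 7.98 and 53.8 CPM in spaQ at 28 °C and between 24.2 and 59.7 CPM in spaQ at 22 °C. For Col-0 the sums were 11.6 to 20.5 CPM at 28 °C, against 113 to 128 CPM at 22 °C. All 12 of them that were tested were called lower at 28 °C in Col-0. In spaQ 0 of the 12 were called by edgeR, with 2 at an unadjusted p under 0.05 and 0 in DESeq2. CASP1, CASP2, PER64, SKOR and MYB36 were detected in all 12 libraries, and NRT2.1 was at 0 in 8 libraries. Fewer root cells and less RNA per root cell cannot be told apart in such samples. Between spaQ and Col-0 at 22 °C 5 of the 12 were called lower, MYB36 was called higher (0.83, edgeR adjusted p 0.0493) and 6 were not called, and DESeq2 called 3. At 28 °C 1 of the 12, SKOR, was called, higher in spaQ. For the interaction, the log2 fold change with warmth in spaQ less the one in Col-0, all 12 were above 0, with a median of 3.95. Of these edgeR called 3, all higher, and DESeq2 called 5. The root genes thus moved beside the HSF results on warmth in Col-0, on genotype at 22 °C and on the interaction. The part of the root genes in these results was not tested. The 7 green-tissue genes summed to 34800, 42700 and 27200 CPM in warm spaQ libraries, against 50200, 44000 and 47600 CPM in cool ones. Their Col-0 sums were 18000 to 20000 CPM when warm, against 38600 to 41600 CPM when cool. The green sums were thus lower at 28 °C in both genotypes without overlap, and warm spaQ lay wholly above warm Col-0. Single genes followed the sums only in part. With warmth 3 of the 7 were called lower and LHCA1 higher in spaQ, and 5 were called lower in Col-0. At 28 °C RBCS1A and RCA were called higher in spaQ than in Col-0, and CAB2 and LHCB2.1 lower. At 22 °C 2 were called higher and 3 lower, and for the interaction 3 higher. The part of the green genes in the HSF results was not tested. Replicate 2 of spaQ at 28 °C stood apart from the other libraries of its group. The chi-square of its counts against the others was 20.7 and 24.8 per degree of freedom, against 5.88 between replicates 1 and 3. Its root sum was 53.8 CPM, against 13.5 and 7.98 CPM. Replicate 1 of spaQ at 22 °C stood apart to a lesser degree. Its chi-square values were 8.31 and 6.88, against 3.32 between replicates 2 and 3, and its root sum was 59.7 CPM, against 28.7 and 24.2 CPM. Each of these libraries had the highest total of its group, 4216858 counts at 28 °C and 6366025 at 22 °C. Such chi-square values rise with total counts where libraries differ by more than counting error. The part of the totals in them was not tested.

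**Figure D1:**
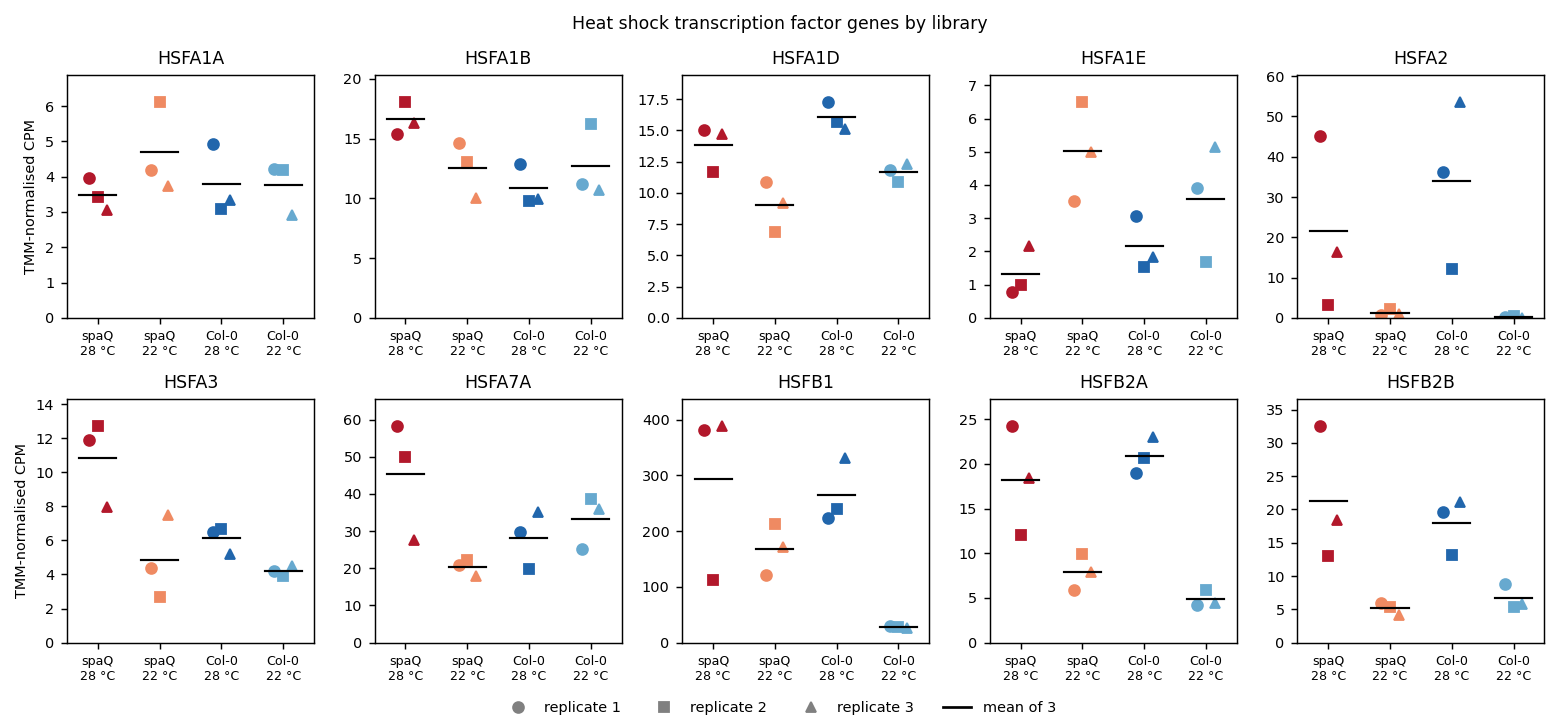
TMM-normalised CPM (linear axes from 0) of the 10 HSF genes in every library, with groups from left to right spaQ at 28 °C, spaQ at 22 °C, Col-0 at 28 °C and Col-0 at 22 °C. Symbols mark replicates 1 to 3 and the line marks their mean. HSFB1 is low in Col-0 at 22 °C alone, at 26.6 to 29.6 CPM, and HSFA7A is highest in spaQ at 28 °C, where its mean was 45.2 CPM.

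Warmth was examined first in each genotype. Of the 10 HSF genes, 6 passed the test between 28 °C and 22 °C in spaQ, 5 higher and 1 lower, and 5 passed in Col-0, all higher. Over all tested genes the shares called were 12.4% in spaQ (6.55% higher and 5.87% lower) and 40.8% in Col-0 (18.9% higher and 21.9% lower). The 5 of 10 in Col-0 stand near the share called in either direction and above the share called higher. The 10 genes were chosen with earlier results of these data known. Neither these shares nor the medians that follow are therefore an independent comparison with all genes. The median log2 fold change of the 10 was 0.98 in spaQ and 0.49 in Col-0, against 0.02 in spaQ and −0.02 in Col-0 over all tested genes. The spaQ counts rested on single libraries. Without replicate 2 of spaQ at 28 °C, 7 HSF genes and 4024 genes in all were called, against 2217 with it. Leaving out warm spaQ replicate 1 left 2 HSF genes called, leaving out cool spaQ replicate 1 left 1, and leaving out cool spaQ replicate 3 left 3. The totals over all genes fell as well, to 1371, 1088 and 1564 in the same order. When only the spaQ libraries were fitted, HSFB2B alone of the 10 was called, with 418 genes called in all. HSFA2 was then not among the tested genes, and HSFB2A (adjusted p 0.0827), HSFA7A (0.0655), HSFA3 (0.124) and HSFA1E (0.074) lost their calls. HSFA2, HSFB2A and HSFB2B were called higher in both genotypes. Calls mean an adjusted p under 0.05 in edgeR's quasi-likelihood test with Benjamini-Hochberg adjustment over all tested genes. The warm comparisons share no library with each other, while the genotype comparisons and the interaction reuse the same 12.

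The sequence upstream of 3 of the genes is printed because these genes carry the contrasts described below. HSFA2 had the highest estimate in both genotypes. HSFA7A and HSFB1 were called for a different warm response, HSFA7A in the direction of spaQ and HSFB1 in that of Col-0. The HSFA7A call was lost in 10 of 12 fits without 1 library, and the HSFB1 call in 0. HSFs bind heat shock elements, inverted repeats of GAA and TTC. The 250 bases before each annotated gene start were searched on both strands for GAANNTTC and TTCNNGAA, each of which reads the same on both strands, and for the 3-unit form, in which GAA, TTC and GAA, or TTC, GAA and TTC, follow each other with NN between them. The 3-unit form is made of overlapping pairs of the 2-unit letters. Capitals mark the matches, and lines read 5′ to 3′ on the gene's strand in RefSeq's TAIR10.1 assembly. For HSFA2 only the 158 bases between the neighbouring gene and the gene start are shown. The coordinates are those of the reference sequence and not of the counts, whose build is not given in the sources used here.
HSFA2 (chr2:11135466-11135623, plus strand): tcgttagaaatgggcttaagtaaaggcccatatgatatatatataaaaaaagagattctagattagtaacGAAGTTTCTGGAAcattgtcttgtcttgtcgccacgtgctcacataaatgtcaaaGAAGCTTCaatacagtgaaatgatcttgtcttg
HSFA7A (chr3:19264891-19265140, plus strand): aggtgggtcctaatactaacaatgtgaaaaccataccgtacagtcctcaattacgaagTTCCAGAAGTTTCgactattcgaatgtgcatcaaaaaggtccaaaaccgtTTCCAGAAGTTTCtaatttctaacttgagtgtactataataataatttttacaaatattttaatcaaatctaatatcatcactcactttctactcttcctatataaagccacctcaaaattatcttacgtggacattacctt
HSFB1 (chr4:17439927-17440176, plus strand): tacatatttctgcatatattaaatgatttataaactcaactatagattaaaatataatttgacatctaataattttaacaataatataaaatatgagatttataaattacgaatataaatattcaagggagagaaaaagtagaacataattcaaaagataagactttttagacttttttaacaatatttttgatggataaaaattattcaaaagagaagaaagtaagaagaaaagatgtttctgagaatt

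HSFA7A held the 3-unit letters at 2 places with the same bases at each, and HSFA2 held them once together with a separate 2-unit match nearer to the start. HSFA1E had 1 match of the 2-unit letters, and the windows of the other 7 genes held none. Of 27443 windows of the same length before protein-coding genes, 16.1% held the 2-unit letters and 0.386% the 3-unit letters, against 3 and 2 of the 10 HSF genes and 11 and 3 of the 19 chaperone and other target genes listed below. A match is a description of letters and not of a bound site.

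**Figure D2:**
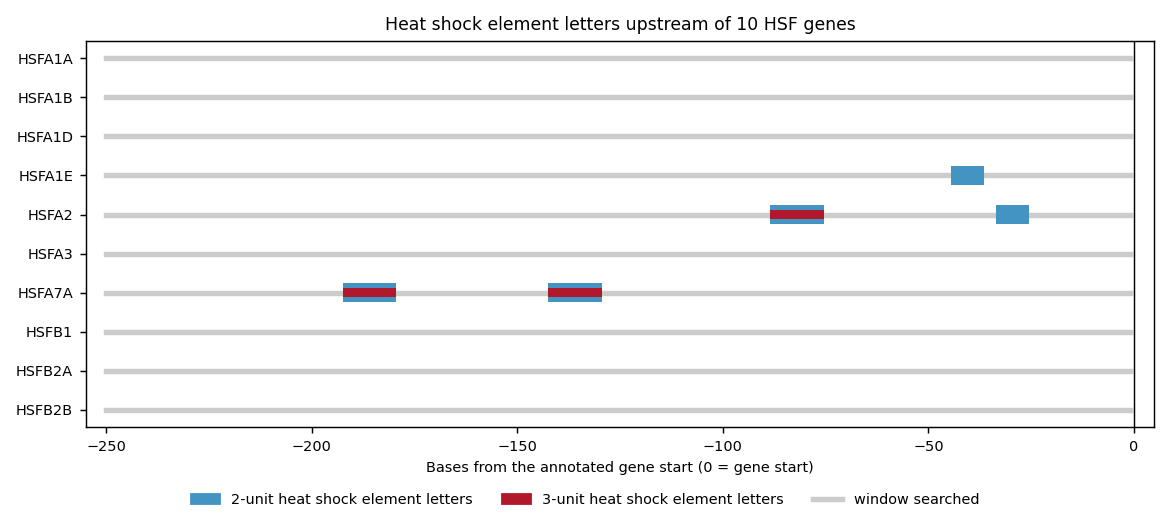
Positions of heat shock element letters in the 250 bases before the annotated start of the 10 HSF genes (x axis in bases from the gene start, one row a gene). Blue blocks are 2-unit letters and red blocks 3-unit letters, which occur once in HSFA2 and at 2 places in HSFA7A.

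The class A1 genes, whose products start the heat response, came first. HSFA1D stood at 15.0, 11.7 and 14.7 CPM in spaQ at 28 °C and at 10.9, 6.90 and 9.17 CPM in spaQ at 22 °C. Col-0 libraries had 17.3, 15.7 and 15.1 CPM when warm, against 11.8, 10.9 and 12.3 CPM when cool. Every warm library of a genotype was above every cool one. The log2 fold change was 0.56 in spaQ (SE 0.186, edgeR adjusted p 0.0661) and 0.46 in Col-0 (SE 0.166, edgeR adjusted p 0.0417), and the call in Col-0 was lost without any 1 of the 6 Col-0 libraries, with adjusted p up to 0.134, and in DESeq2 (adjusted p 0.0993). The spaQ value passed without replicate 2 of spaQ at 28 °C (0.66, adjusted p 0.0326).

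HSFA1B, which acts redundantly with its A1 relatives, stood at 15.4, 18.1 and 16.3 CPM in spaQ at 28 °C and at 14.6, 13.0 and 10 CPM in spaQ at 22 °C. Values for Col-0 were 12.9, 9.76 and 9.91 CPM at 28 °C, against 11.2, 16.2 and 10.7 CPM at 22 °C. The warm spaQ libraries were the highest of all 12 apart from replicate 2 of Col-0 at 22 °C. Warmth gave 0.38 in spaQ (SE 0.206, edgeR adjusted p 0.255) and −0.20 in Col-0 (SE 0.198, edgeR adjusted p 0.443). At 28 °C spaQ was higher than Col-0 by 0.60 (SE 0.196, edgeR adjusted p 0.0331), a call that was lost without any 1 of 6 libraries, with adjusted p up to 0.114: those of spaQ at 28 °C, replicates 2 and 3 of Col-0 at 28 °C and replicate 1 of Col-0 at 22 °C. HSFA1B overlaps AT5G16830 on the other strand by 44 bases, and without strand their reads cannot be told apart there.

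HSFA1E was low throughout, with 2, 4 and 7 counts in spaQ at 28 °C and 21, 17 and 12 counts in spaQ at 22 °C. These were 0.792, 0.978 and 2.15 CPM in the warm libraries and 3.53, 6.51 and 5.00 CPM in the cool ones. In Col-0 the warm libraries had 3.07, 1.54 and 1.84 CPM and the cool ones 3.92, 1.68 and 5.15 CPM, where the groups overlapped. It fell by 1.85 on the log2 scale in spaQ (SE 0.527, edgeR adjusted p 0.0381), and the Col-0 value was −0.68 (SE 0.430, edgeR adjusted p 0.231). The call in spaQ was lost in 7 of 12 fits that left out 1 library, namely replicates 1 to 3 of spaQ at 22 °C, replicates 1 and 2 of spaQ at 28 °C, replicate 3 of Col-0 at 28 °C and replicate 1 of Col-0 at 22 °C, with adjusted p up to 0.109. The difference of the 2 responses was −1.17 with a 95% interval from −2.66 to 0.32.

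HSFA1A lay between 2.91 and 6.13 CPM in all 12 libraries. Its warm log2 fold change was −0.42 in spaQ, with a 95% interval from −1.11 to 0.27, and 0.06 in Col-0, with an interval from −0.56 to 0.68. Neither passed the test.

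HSFA2, which is induced by the A1 factors and sustains the response during long or repeated heat, was near the floor at 22 °C. It stood at 45.1, 3.18 and 16.3 CPM in spaQ at 28 °C and at 0.673, 2.30 and 0.834 CPM in spaQ at 22 °C. In Col-0 it stood at 36.2, 12.1 and 53.7 CPM at 28 °C, against 1, 2 and 0 counts at 22 °C. Warm and cool libraries did not overlap in either genotype, but warm replicates of a genotype were far apart. The fitted log2 fold change was 4.15 in spaQ (SE 1.05, edgeR adjusted p 0.0227) and 6.90 in Col-0 (SE 1.2, edgeR adjusted p 0.000678). Since Col-0 at 22 °C held 3 counts in all, its estimate depends on the prior count, and the ratio of summed normalised counts was 146, with a 95% counting interval from 49.9 to 711. The spaQ call was lost without replicate 1 or 3 of spaQ at 22 °C (adjusted p 0.117 and 0.0635) or without replicate 1 of spaQ at 28 °C (adjusted p 0.083).

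HSFA2 did not pass the test between the genotypes. At 28 °C the difference, spaQ over Col-0, was −0.78 with a 95% interval from −2.15 to 0.59 (edgeR adjusted p 0.394), and without replicate 1 of spaQ at 28 °C it was −1.90 with an adjusted p of 0.0462. At 22 °C there were 12 counts in spaQ and 3 in Col-0, a ratio of 4.15 with a counting interval from 1.12 to 22.9, and the fit, which also takes in the spread between libraries, gave an adjusted p of 0.508. The interaction was −2.75 with an interval from −7.77 to 2.27, so a difference in either direction could not be told at this depth.

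HSFA3, which lies downstream of the factor DREB2A, stood at 11.9, 12.7 and 7.98 CPM in spaQ at 28 °C and at 4.37, 2.68 and 7.51 CPM in spaQ at 22 °C. The warm Col-0 libraries held 6.51, 6.68 and 5.18 CPM, against 4.22, 3.91 and 4.47 CPM in the cool ones. All 3 warm spaQ libraries lay above all others. HSFA3 rose by 1.2 in spaQ (SE 0.303, edgeR adjusted p 0.0228), the Col-0 value was 0.52 (SE 0.298, edgeR adjusted p 0.181), and at 28 °C spaQ was higher than Col-0 by 0.84 (SE 0.269, edgeR adjusted p 0.0311). The warm call in spaQ was lost without replicate 1 or 2 of spaQ at 22 °C or replicate 1 of spaQ at 28 °C, with adjusted p up to 0.102. The genotype call at 28 °C was lost without any Col-0 library at 28 °C, replicate 1 or 2 of spaQ at 28 °C or replicate 1 or 2 of Col-0 at 22 °C, with adjusted p up to 0.116. The interaction was 0.67 (edgeR adjusted p 0.346). AT5G03710, which overlaps HSFA3 on the other strand by 486 bases, had 3 counts in all libraries, against 348 for HSFA3.

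HSFA7A, a heat-induced class A factor, was called higher with warmth in spaQ and was not called in Col-0. It stood at 58.2, 49.9 and 27.6 CPM in spaQ at 28 °C and at 20.8, 22.2 and 17.9 CPM in spaQ at 22 °C. Col-0 libraries had 29.8, 19.8 and 35.1 CPM when warm, against 25.3, 38.6 and 36.0 CPM when cool. Warm spaQ libraries were all above cool spaQ libraries, while the Col-0 groups overlapped. HSFA7A rose by 1.14 in spaQ (SE 0.277, edgeR adjusted p 0.0192) and had −0.22 in Col-0 (SE 0.258, edgeR adjusted p 0.528). The warm call in spaQ was lost without replicate 1 or 3 of spaQ at 22 °C or replicate 1 of spaQ at 28 °C, with adjusted p up to 0.0711. Its upstream window, printed above, held more matches to heat shock element letters than that of any other of the 10 genes.

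For HSFA7A the interaction, meaning the fold change with warmth in spaQ less the one in Col-0, was 1.36 (SE 0.379, edgeR adjusted p 0.0355). Of 12 fits that left out 1 library each, 2 kept the call, those without replicate 3 of Col-0 at 28 °C or replicate 3 of spaQ at 28 °C, and 10 did not, with adjusted p up to 0.113 and values from 1.15 to 1.44 among those 10. Scaling by library totals gave 1.18 with an adjusted p of 0.0593. The genotypes themselves did not pass the test at either temperature: spaQ over Col-0 was 0.65 at 28 °C (interval 0.09 to 1.21, edgeR adjusted p 0.0732) and −0.71 at 22 °C (interval −1.31 to −0.11, edgeR adjusted p 0.0559). Without replicate 3 of spaQ at 28 °C the value at 28 °C was 0.91 with an adjusted p of 0.00809. The value at 22 °C passed without replicate 1 of Col-0 at 22 °C, replicate 2 of Col-0 at 28 °C, or replicate 1 or 3 of spaQ at 28 °C, with adjusted p down to 0.0212. It also passed with library totals (−0.80, adjusted p 0.0307) and with only the libraries compared (−0.67, adjusted p 0.0069).

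HSFB1, also known as TBF1, is a class B repressor of heat shock genes that is also known from the switch between growth and defence. It stood at 382, 112 and 388 CPM in spaQ at 28 °C and at 122, 212 and 171 CPM in spaQ at 22 °C. Values for Col-0 were 224, 239 and 332 CPM at 28 °C, against 29.6, 28.8 and 26.6 CPM at 22 °C. The spaQ libraries at 22 °C thus lay far above those of Col-0 at 22 °C, and the spaQ groups overlapped through replicate 2 at 28 °C. Of the 10 HSF genes, HSFB1 was the 1 called between the genotypes at 22 °C, where 42.5% of all tested genes were called (20.7% higher). Its log2 fold change was 2.57 (SE 0.394, edgeR adjusted p 0.000288), and all 12 fits without a library kept the call.

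In Col-0 warmth raised HSFB1 by 3.23 (SE 0.399, edgeR adjusted p 7.73e-05), 265 ± 58.4 CPM at 28 °C against 28.3 ± 1.52 CPM at 22 °C (SD, n = 3 each). In spaQ the value was 0.81 (SE 0.360, edgeR adjusted p 0.164), 294 ± 157 CPM at 28 °C against 168 ± 44.8 CPM at 22 °C (SD, n = 3 each). Without replicate 2 of spaQ at 28 °C it was 1.19 and passed with an edgeR adjusted p of 0.0012. The interaction was −2.42 (SE 0.524, edgeR adjusted p 0.0139), kept in all 12 fits without a library with adjusted p up to 0.0436. At 28 °C the genotypes gave 0.15 with a 95% interval from −0.62 to 0.92, and −0.13 when libraries were scaled by their totals. The interaction was called for 2 of the 10 HSF genes, HSFA7A higher and HSFB1 lower, beside 11.9% of all tested genes (6.58% higher and 5.29% lower).

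HSFB2A, a class B factor known from gametophyte development as well as heat, stood at 24.2, 12 and 18.4 CPM in spaQ at 28 °C and at 5.88, 9.96 and 7.92 CPM in spaQ at 22 °C. The warm Col-0 libraries held 19.0, 20.6 and 23.0 CPM, against 4.22, 5.87 and 4.47 CPM in the cool ones. No warm library overlapped a cool one. HSFB2A rose by 1.23 in spaQ (SE 0.268, edgeR adjusted p 0.0119) and by 2.1 in Col-0 (SE 0.265, edgeR adjusted p 8.62e-05). The spaQ call was lost without replicate 1 of spaQ at 22 °C (0.99, adjusted p 0.0735). At 22 °C spaQ over Col-0 was 0.64 (interval −0.03 to 1.31, edgeR adjusted p 0.111), a value that passed without replicate 2 of spaQ at 28 °C (adjusted p 0.0442). The interaction was −0.87 (SE 0.384, edgeR adjusted p 0.163).

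HSFB2B, which represses heat genes together with HSFB1, stood at 32.5, 13.0 and 18.4 CPM in spaQ at 28 °C and at 5.88, 5.36 and 4.17 CPM in spaQ at 22 °C. Col-0 libraries had 19.6, 13.1 and 21.1 CPM when warm, against 8.74, 5.31 and 5.82 CPM when cool. Warm and cool libraries were separate in both genotypes. HSFB2B rose by 1.96 in spaQ (SE 0.350, edgeR adjusted p 0.00447) and by 1.47 in Col-0 (SE 0.320, edgeR adjusted p 0.00286), and both calls were kept in all 12 fits without a library. The genotypes differed by 0.18 at 28 °C (interval −0.44 to 0.80) and by −0.31 at 22 °C (interval −1.16 to 0.54), and the interaction was 0.49 (interval −0.56 to 1.54). HSFB2B overlaps AT4G11670 on the other strand by 308 bases, and the 2 genes had 773 and 597 counts in all libraries, so part of its count is uncertain.

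**Figure D3:**
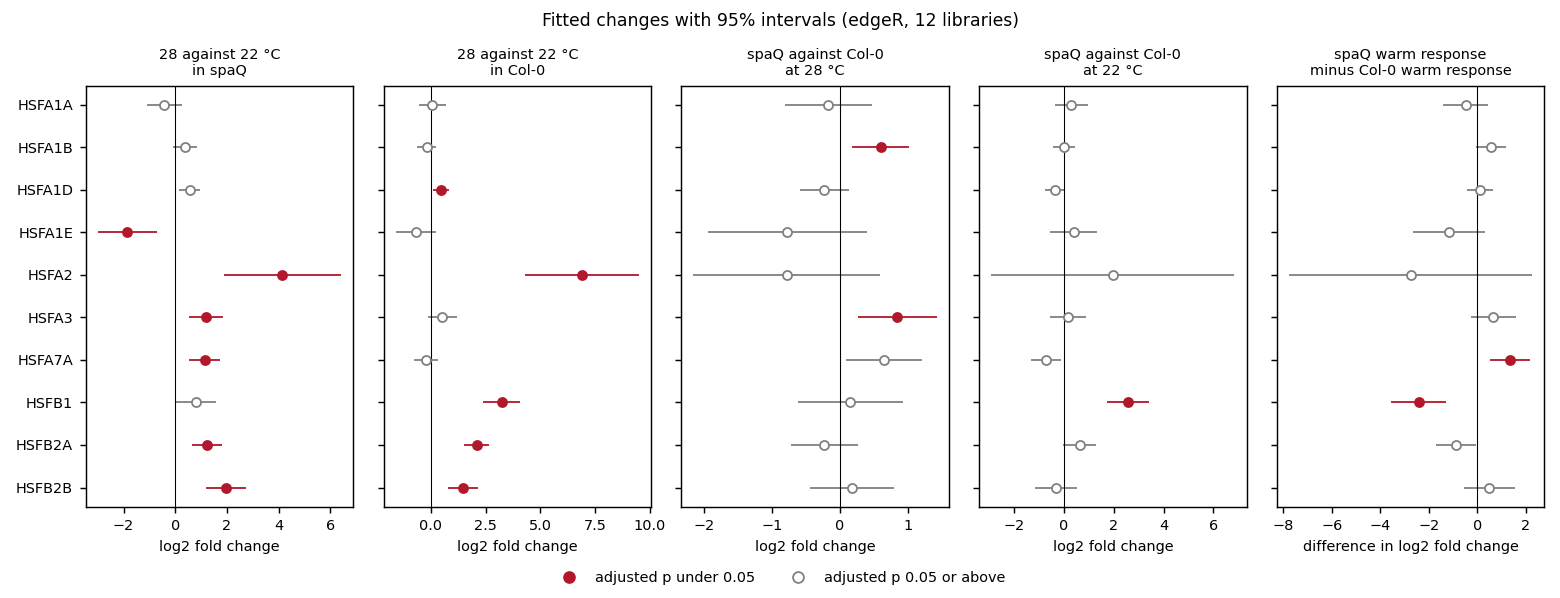
Fitted log2 changes of the 10 HSF genes (points) with 95% intervals (bars) in 5 comparisons, each named above its panel, with x axes of different range and red filled points for adjusted p under 0.05. HSFA2, HSFB2A and HSFB2B are red in both warmth panels, and HSFA7A at 1.36 and HSFB1 at −2.42 are red in the panel of the difference between warm responses.

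Between the genotypes at 28 °C, 2 of the 10 HSF genes passed, HSFA1B and HSFA3, both higher in spaQ, beside 30.9% of all tested genes. Scaling by library totals ended both calls (adjusted p 0.207 for HSFA1B and 0.113 for HSFA3), and so did leaving out the filter on low counts (0.0685 and 0.0504). With library totals HSFA1D was called instead, lower in spaQ (−0.49, adjusted p 0.0341). The median log2 fold change of the 10 genes was −0.01 at 28 °C and 0.24 at 22 °C, against 0.03 and −0.05 over all tested genes.

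Of the other 11 HSF genes, 6 had enough counts to be tested and HSFA9, a seed factor, had 0 counts in all libraries. In spaQ 0 of the 6 passed between 28 °C and 22 °C in edgeR, with 1 at an unadjusted p under 0.05 and 0 in DESeq2. In Col-0 3 were higher at 28 °C, HSFA4A by 0.97 (edgeR adjusted p 0.0151), HSFA4C by 0.80 (0.00633) and HSFA8 by 1.21 (0.00233), and HSFC1 fell by 1.21 (0.0435). At 22 °C the same 4 genes passed between spaQ and Col-0, at 1.29, 0.66, 1.2 and −1.82, and at 28 °C HSFA8 passed at 0.63 (edgeR adjusted p 0.0419), where DESeq2 called 0 of the 6. For the interaction 0 of 6 passed in edgeR, with 1 at an unadjusted p under 0.05 and 0 in DESeq2. HSFC1 overlaps a long noncoding RNA gene on the other strand.

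Partners and upstream regulators of the HSFs were then examined in a list of 7. In spaQ 5 passed higher at 28 °C and in Col-0 5 passed higher and 1 lower. MBF1C, a coactivator of the heat response, stood at 737, 168 and 286 CPM in spaQ at 28 °C and at 9.42, 18.8 and 8.76 CPM in spaQ at 22 °C, and it rose by 5.04 (edgeR adjusted p 0.000236). In Col-0 the warm libraries had 368, 222 and 439 CPM and the cool ones 9.95, 8.39 and 11.6 CPM, and it rose by 5.09 (edgeR adjusted p 3.42e-05). ROF1 and ROF2 encode immunophilins that act on HSFA2. ROF2 rose by 5.44 in spaQ and 5.29 in Col-0 (edgeR adjusted p 0.00087 and 0.000104), and ROF1 by 1.30 in spaQ and 0.98 in Col-0 (0.00201 and 0.00172). MBF1C overlaps other genes on the opposite strand, 1 of them, AT3G24503, with 9067 counts against its own 12365.

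DREB2A, the activator of HSFA3, stood at 154, 58.0 and 94.8 CPM in spaQ at 28 °C and at 26.2, 34.1 and 31.7 CPM in spaQ at 22 °C. Values for Col-0 were 59.2, 31.3 and 74.5 CPM at 28 °C, against 6.03, 4.19 and 7.61 CPM at 22 °C. Like HSFB1, it was already higher in spaQ than in Col-0 at 22 °C, by 2.33 (edgeR adjusted p 0.00112), and its relative DREB2C passed there too, at 1.98 (edgeR adjusted p 0.0383). DREB2A rose with warmth by 1.74 in spaQ (edgeR adjusted p 0.0083) and by 3.20 in Col-0 (edgeR adjusted p 9.88e-05), and its interaction was −1.47 (edgeR adjusted p 0.102). HSBP, whose protein dissociates HSF trimers, fell by 0.28 in Col-0 (edgeR adjusted p 0.0248), and in spaQ the value was −0.08 (0.61). For the interaction 0 of the 7 passed in edgeR, with 1 at an unadjusted p under 0.05 and 1 called by DESeq2, and between genotypes at 28 °C the counts were likewise 0, 1 and 1.

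Genes known as heat-induced HSF targets moved in 1 direction with warmth. Of the 18 tested in a list of 19, 17 were called higher in spaQ and 18 in Col-0. Median log2 fold changes were 4.81 in spaQ and 5.50 in Col-0. HSP21 was without a count in cool Col-0 libraries, and the Col-0 median was 5.25 with HSP21 set to its bound from 3 counts per library. The 1 not called in spaQ was HSP21, a chloroplast small heat shock protein (2.45, edgeR adjusted p 0.28). HSP22.0, HSP21, HSP17.6C, HSP17.6II, HSP23.6 and HSP26.5 stayed at or under 2.35 CPM in every library at 22 °C. They passed the filter on low counts through libraries at 28 °C only, so it favours a warm rise for them, as for HSFA2. The list was also chosen with earlier results of these data known. Between the genotypes at 22 °C, 0 of the 18 passed in edgeR, 0 had an unadjusted p under 0.05 and 0 of the 17 with a DESeq2 adjusted p passed in DESeq2, while HSFB1 and DREB2A were called there. At 28 °C HSP21 was called lower in spaQ, by 3.13 (edgeR adjusted p 0.00348), with 6 counts in spaQ and 135 in Col-0. The spaQ libraries held 3, 1 and 2 counts, at or under the floor in each. The ratio of summed normalised counts was 0.105 (95% counting interval 0.0379 to 0.235). HSP21 passed the filter through Col-0 libraries at 28 °C only, so the filter favours this difference as well. For the interaction 0 of the 18 passed in edgeR and 0 had an unadjusted p under 0.05. Of the 17 with a DESeq2 adjusted p, 0 passed. Medians of the 18, spaQ over Col-0, were 0.40 at 22 °C (13 above 0) and −0.54 at 28 °C (0 above 0). The median interaction was −0.77 (3 above 0). Its 95% intervals ran from −1.11 to 1.47 for HSA32 and from −10.86 to 8.76 for HSP22.0. The lack of calls therefore does not show equal responses. Among called targets in spaQ the highest estimates were those of HSP22.0 (6.57), HSP17.6C (6.39) and HSP17.4 (5.95), small heat shock proteins, and the lowest those of FES1A (2.61), HSA32 (2.65) and HSP23.5 (3.08). HSP22.0 and HSP17.6C held 4 and 6 counts over the cool spaQ libraries, at or under the floor in each, so their estimates depend on the prior count and their place in that order is uncertain. Their ratios of summed normalised counts were 85.5 (95% counting interval 33 to 316) for HSP22.0 and 74 (33.7 to 203) for HSP17.6C.

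The 11 small heat shock protein genes of that list summed to 3460, 292 and 436 CPM in spaQ at 28 °C and to 20.5, 72.8 and 36.3 CPM in spaQ at 22 °C. The warm Col-0 libraries held 2780, 576 and 2900 CPM, against 27.1, 29.4 and 30 CPM in the cool ones. The libraries within a group differed in the same way as for HSFA2: in spaQ at 28 °C replicate 1 was highest and replicate 2 lowest for both, and in Col-0 at 28 °C replicate 3 was highest and replicate 2 lowest for both. HSFB1 in spaQ at 28 °C was likewise lowest in replicate 2, at 112 CPM. Its replicates 1 and 3 were close, at 382 and 388 CPM, where the small heat shock protein sums were 3460 and 436 CPM.

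**Figure D4:**
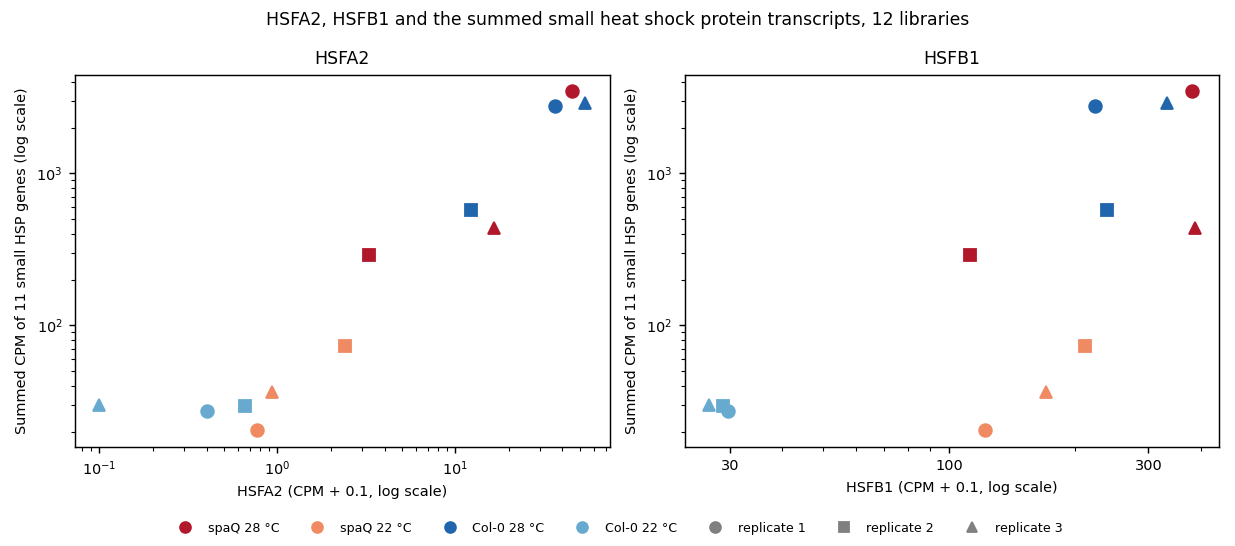
Summed CPM of 11 small heat shock protein genes (y, log scale) against HSFA2 (left) and HSFB1 (right) in CPM + 0.1 (x, log scale) in 12 libraries, coloured by group with symbols for replicates. HSFA2 and the sum are both low at 22 °C and spread together at 28 °C, while HSFB1 in spaQ at 22 °C reached 122 to 212 CPM at sums of 20.5 to 72.8 CPM.

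Genes with the most similar pattern were sought among the 12177 or 12178 genes averaging 10 CPM or more, as the smallest root mean square difference of standardised log2 CPM over the 12 libraries, where the median gene lay at 1.34 from HSFB1. For HSFA2 the nearest were AT5G54165 (0.158), HSP17.4 (0.190) and HSP17.6A (0.196). For HSFB1 they were AT1G13520 (0.109), ERF6 (0.112), an ethylene response factor, and AT3G51890 (0.130). HSFB2A had AT5G10695 (0.192), PMZ (0.224) and AT5G54165 (0.226), and HSFB2B had ROF1 (0.252), AT3G44190 (0.272) and HSP101 (0.295), a disaggregase of the heat response. HSFA7A had AT2G39795 (0.372), MSRA5 (0.413) and AT5G19120 (0.417), and HSFA3 had NLA (0.274), AT2G46580 (0.339) and AT1G20890 (0.375). HSFA1D was nearest to SWI3B (0.302), HSFA1E to NUDT2 (0.475) and HSFA1B to AT4G01650 (0.524). Among the 10 genes themselves HSFA2 and HSFB2A were the most alike pair (0.237), and HSFB1 lay 0.461 from HSFB2A and 0.549 from HSFA2.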

How the data were processed

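The authors deposited 1 table of raw read counts per gene, whole numbers with one column per library and no normalisation, per the labels' protocols from 3′ Tag-Seq of total RNA. FastQC, Bowtie2, TopHat, HTSeq and edgeR are listed in the submitters' processing notes without versions. The genome build, strand setting and any removal of duplicate reads are not given in the sources used here. Summary lines at the table's end were left out; ambiguous reads among them were 0.453% to 0.616% of a library. Genes were filtered with filterByExpr over the 4 groups, scaled by TMM (factors 0.917 to 1.16) and tested with edgeR 4.0.16 (R 4.3.3): 1 coefficient per group over 12 libraries, glmQLFit and two-sided quasi-likelihood F-tests, 5 contrasts, adjusted p under 0.05. SEs come from the estimate and its F statistic, intervals are 95% from the same fit. The fit was tested on simulated data.

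Members and gene lists were chosen with earlier results of these data known. Named genes are the 10 members, called genes of the other HSF list, the regulators, and of the targets the 3 highest and 3 lowest called, plus the 3 nearest patterns (prior count 2). Alternatives were DESeq2 1.42.0, its size factors, library totals, other filters, only the libraries compared, a replicate block and leaving out each library.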

Additional observations from a re-analysis of the deposited data

Results flagged for a closer look

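The test of the difference between the warm responses of the genotypes called 2 of the 10 HSF genes, 1 higher and 1 lower. Over all tested genes it called 11.9% (6.58% higher and 5.29% lower). For HSFB1 the log2 fold change in spaQ less the one in Col-0 was −2.42 (SE 0.524, edgeR adjusted p 0.0139), with 382, 112 and 388 CPM in the warm spaQ libraries, 122, 212 and 171 CPM in the cool spaQ libraries, 224, 239 and 332 CPM in the warm Col-0 libraries and 29.6, 28.8 and 26.6 CPM in the cool Col-0 libraries. For HSFA7A it was 1.36 (SE 0.379, edgeR adjusted p 0.0355), with 58.2, 49.9 and 27.6 CPM in the warm spaQ libraries, 20.8, 22.2 and 17.9 CPM in the cool spaQ libraries, 29.8, 19.8 and 35.1 CPM in the warm Col-0 libraries and 25.3, 38.6 and 36.0 CPM in the cool Col-0 libraries. The HSFA7A call was lost in 10 of 12 fits that left out 1 library, with adjusted p up to 0.113, and the HSFB1 call in 0 of 12.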

How the results depend on the processing

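Of 937 values of single HSF genes under the alternatives, 845 kept direction and side of the threshold, 63 lost a call, 12 gained one and 17, all without a call, changed sign; the causes were not tested. The number of HSF genes called was 6 between temperatures in spaQ and 1 when only the libraries compared were fitted, where HSFA2 was not tested. In Col-0 it was 5, against 4 in DESeq2. Between genotypes at 28 °C it was 2, against 1 with library totals, DESeq2 or the replicate block, and 0 with no filter or only the libraries compared; the 1 with library totals was HSFA1D, lower in spaQ (−0.49). At 22 °C it was 1, against 2 with library totals or only the libraries compared, which both added HSFA7A, lower in spaQ. For the interaction it was 2, against 1 with library totals or the replicate block. Without 1 library the counts ran from 1 to 7 in spaQ, 4 to 5 in Col-0, 0 to 2 at 28 °C, 1 to 2 at 22 °C and 1 to 2 for the interaction. Over all genes these fits called 1088 to 4024 in spaQ and 5765 to 8438 in Col-0. They called 4269 to 6346 at 28 °C, 5970 to 8503 at 22 °C and 885 to 2838 for the interaction.

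Signs changed with library totals for HSFA1B in Col-0 (0.01) and at 22 °C (−0.06), HSFB1 (−0.13) and HSFB2B (−0.09) at 28 °C, and the HSFA1D interaction (−0.08). Leaving out 1 library, values ran through 0 for HSFA1B in Col-0 (−0.36 to 0.07) and at 22 °C (−0.13 to 0.27), HSFA1A in Col-0 (−0.20 to 0.21) and at 28 °C (−0.27 to 0.10), HSFA3 at 22 °C (−0.15 to 0.40), HSFB1 (−0.11 to 0.51) and HSFB2B (−0.23 to 0.41) at 28 °C, and the HSFA1D interaction (−0.04 to 0.31). Library totals moved the median of all genes to 0.19 in Col-0 and −0.23 at 28 °C, against −0.02 and 0.03 with TMM. Calls that were higher then made up 68.3% in Col-0 (46.3% with TMM), 28.4% at 28 °C (56.2%) and 25.6% for the interaction (55.5%). Fitting only the libraries compared called 418 genes in spaQ, against 2217. Same-numbered libraries did not deviate together (mean r −0.0426 over 18 pairs, 2 above 0.1, and 2 of 12 libraries closest to their own number), and the replicate block called 1343 genes for the interaction, against 2117. The block ended the calls of HSFA1E (adjusted p 0.06) and HSFA3 (0.0505) in spaQ, HSFA3 at 28 °C (0.0589) and the HSFA7A interaction (0.0708). Low counts limit HSFA2 at 22 °C and HSFA1E.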
